A study of Mus musculus with 4 samples.

Results

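Nuclear-encoded genes of oxidative phosphorylation were compared between Fgf10-positive cells of adult and pup mouse submandibular gland, a major salivary gland. The genes were chosen by symbol: every protein-coding gene starting with Ndufa, Ndufb, Ndufc, Ndufs, Ndufv, Uqcr, Cox4, Cox5, Cox6, Cox7, Cox8 or Atp5, with Sdha, Sdhb, Sdhc, Sdhd and Cyc1, and without the Ndufaf assembly factors. Of the 53465 genes counted, 86 matched, and they fell into 38 for complex I, 4 for complex II, 9 for complex III, 18 for complex IV and 17 for complex V. A low-count filter left 83 of them in the test. The 3 left out were Cox6a2, Cox7b2 and Cox8c, isoforms known from heart and skeletal muscle or from testis. Of the 86 genes, 82 had a count in every library and 75 had at least 100.

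Oxidative phosphorylation takes place in the inner mitochondrial membrane. Complexes I and II pass electrons from NADH and succinate to coenzyme Q, complex III passes them on to cytochrome c, and complex IV reduces oxygen. The proton gradient built by complexes I, III and IV drives ATP synthase, complex V. Most subunits are encoded in the nucleus and a small set of core subunits in mitochondrial DNA, and several nuclear subunits exist as ubiquitous and tissue-restricted isoforms. Among salivary gland cells, ionocytes and the cells of striated ducts are known for their many mitochondria.

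There were 2 libraries of adults at postnatal day 60, which had received tamoxifen on days 57 and 58, and 2 libraries of pups at postnatal day 7, which had received it on days 4 and 5. The dose was 0.1 mg per g of body weight at both ages. All mice were of the strain C57BL/6J and carried Fgf10CreERT2:Rosa26Tomato fl/fl, so every library has the same tamoxifen-inducible Cre, driven from Fgf10, and the same Tomato reporter. Cells were thus marked by Fgf10 expression at the time of tamoxifen and sorted. Unmarked or untreated cells were not analysed here. The labels do not say whether the 2 libraries of an age came from separate animals, and the tests therefore see only how far these samples scatter, which may be technical.

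The libraries differed in depth and makeup. Counts over genes came to 13791730 and 16585518 in adult replicates 1 and 2, and to 7289792 and 21490686 in pup replicates 1 and 2. Pup replicate 1 stood apart: reads outside annotated features made up 76.7% of its reads, against 9.70% to 10.6% in the other libraries, and 96.7% of 1092 olfactory receptor genes had a count there, against 1.56% to 7.78%. Background spread evenly over exons at the olfactory receptor rate would account for 24.1% of its gene counts. Fgf10 itself stood at 195 and 40.3 CPM (read counts scaled to library size with TMM factors) in adult cells, against 27.3 and 24.1 CPM in pup cells. Ionocyte markers, 6 genes such as Foxi1 and Ascl3, summed to 4394 and 2273 CPM in adult cells and to 45.6 and 43.7 CPM in pup cells. The sum of 6 mesenchyme markers was 393 and 19508 CPM in adult cells and 22066 and 51125 CPM in pup cells, so the adult libraries also differed from each other.

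The nuclear genes of all 5 complexes were higher in adult cells. Their summed level was 46357 and 28350 CPM in adult replicates 1 and 2, against 6010 and 17173 CPM in pup replicates 1 and 2. Both adult sums lay above both pup sums, but the pups differed 2.86-fold between themselves, and adult replicate 2 was 1.65-fold above pup replicate 2. Of the 83 tested genes, 81 had a positive log2 fold change, or 97.6%, against a background of 42.9% of all 16320 genes tested. The median log2 fold change, adult over pup, was 1.56, against -0.24 over all genes. In this bulk measurement, fewer cells with many mitochondria and less of these RNAs per cell cannot be told apart.

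The spread between libraries limited the tests of single genes. In 78 of the 83 genes, or 94.0%, both adult libraries were above both pup libraries, against a background of 21.8%, and in 0 genes were they below, against 27.1%. The quasi-likelihood test of edgeR called 0 of the 83 genes at a Benjamini-Hochberg adjusted p under 0.05, as it called 0% of all genes. At an unadjusted p under 0.05 it had 20 genes higher in adult, or 24.1%, against a background of 5.99%, and 0 lower, against 8.49%. DESeq2, run as an alternative, called 17 genes higher, or 20.5%, against a background of 3.74%, and 0 lower, against 5.28%. Limma-voom called 0, as it called 0% of all genes. DESeq2 called fewer of the genes without pup replicate 1 or without adult replicate 1. Its excess over the background was not shown to hold without either library. Each of these fits leaves 1 library in an age, so its calls cannot decide this. The median log2 fold change of the 83 genes in DESeq2 was 1.026 without pup replicate 1, against 0.028 over all genes. Without adult replicate 1 it was 1.177, against -0.223.

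Within each age the whole set moved from library to library. Of the 83 genes, 79 were higher in adult replicate 1 than in adult replicate 2, with a median ratio of 1.64, and 79 were lower in pup replicate 1 than in pup replicate 2, with a median ratio of 0.35. The median ratio between adult replicates 1 and 2 was 2.19 for the 6 ionocyte markers and 0.80 for 4 epithelium markers. The epithelium markers (Epcam, Cdh1, Krt8 and Krt18) summed to 6398 and 10154 CPM in adult libraries, against 1219 and 2896 CPM in pup libraries. Their median log2 fold change was 1.88, and 4 of 4 did not overlap, against a background of 21.8% of all genes. Endothelium markers, 4 genes, summed to 0.08 and 629 CPM in adult libraries and to 88.3 and 6.25 CPM in pup libraries. Proliferation markers, 4 genes, summed to 5.98 and 2.23 CPM in adult libraries, against 158 and 168 CPM in pup libraries. Leukocyte markers, 4 genes, summed to 18.5 and 17.6 CPM in adult libraries and 95.6 and 12.3 CPM in pup libraries. Of the 594 counts of the leukocyte marker Ptprc in pup replicate 1, 256 would be expected from that library's background. The share of all gene counts that came from the 86 genes was 4.39% and 2.37% in adult cells, against 0.762% and 1.52% in pup cells. The means were 3.38% ± 1.42 in adults and 1.14% ± 0.537 in pups (SD, n = 2 each), and the exact two-sided permutation test gave p = 0.333, the smallest that 2 against 2 libraries allow. The part of cell makeup and of the background of pup replicate 1 in these differences was not tested, beyond the values with that background subtracted or a library left out. With the background subtracted, 80 of the 83 genes stayed positive. The median without pup replicate 1 was 1.04.

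**Figure D1:**
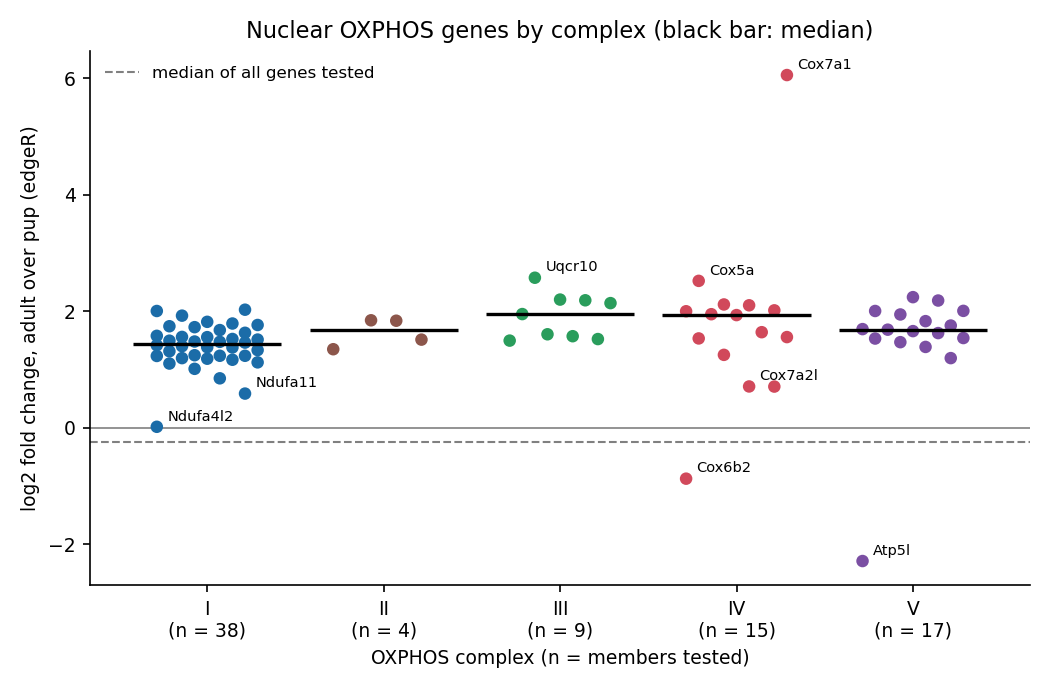
Log2 fold change (adult over pup, edgeR) of the 83 tested genes, 1 point per gene, by complex I to V, with a bar at each median and a dashed line at the median of all genes. Most points lie between 1 and 2.6, Cox7a1 stands apart at 6.06, and Atp5l and Cox6b2 lie below 0.

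**Figure D2:**
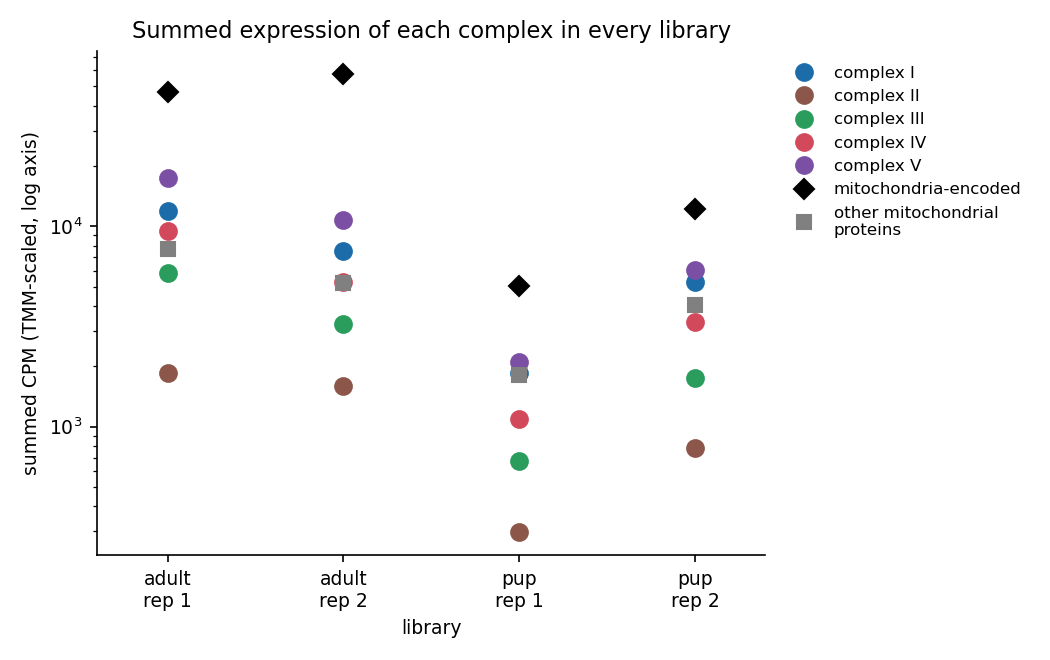
Summed CPM of the nuclear genes of each complex in the 4 libraries, on a log axis, with the adults left of the pups. Both adult libraries lie above both pup libraries in every complex, and pup replicate 1 is the lowest library throughout.

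By complex, medians ran from 1.44 to 1.95. The median log2 fold change was 1.44 in complex I (38 genes), 1.68 in complex II (4 genes), 1.95 in complex III (9 genes), 1.94 in complex IV (15 genes) and 1.68 in complex V (17 genes). No test of the difference between complexes was made. Against the background of 3.74% of all genes, DESeq2 called 3 genes of complex I, 1 of complex II, 5 of complex III, 5 of complex IV and 3 of complex V.

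Relative to complex I, transcripts of complexes III and V took more room in adult cells. The summed CPM of complex III was 0.493 and 0.435 times that of complex I in adult cells, against 0.364 and 0.330 times in pup cells. For complex IV the ratios were 0.796 and 0.707 in adult cells, against 0.591 and 0.625 in pup cells, and for complex V 1.47 and 1.43, against 1.15 and 1.14. In these 3 ratios the ages did not overlap. The ratio of complex II overlapped, at 0.155 and 0.213 in adult cells and 0.161 and 0.149 in pup cells. Per kb of transcript, complex I made up 26.3% and 28.1% of the set's level in adult cells, against 32.7% and 33.1% in pup cells. As ratios within a library, these values hold however the library is scaled, and they show unequal change, not that any complex stayed level.

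Complex I, the NADH dehydrogenase, had its 38 tested genes between 0.02 and 2.03 on the log2 scale. Of them, 36 did not overlap between the ages, against a background of 21.8% of all genes. By symbol the 38 include Ndufa4, now placed in complex IV, and its paralog Ndufa4l2, which is the lower end of that range. With Ndufa4 moved to complex IV and Ndufa4l2 left out, the median of complex I stayed at 1.44. The 7 core subunits that carry flavin and iron-sulfur clusters or bind the quinone end had a median of 1.5. The 29 accessory subunits had a median of 1.38. Ndufs7, a core iron-sulfur subunit next to the quinone site, had 376 and 318 CPM in adult cells, against 67.7 and 129 CPM in pup cells. Its log2 fold change was 1.82, and DESeq2 gave it an adjusted p of 0.0103, the smallest in the complex. Ndufs1, the largest iron-sulfur subunit, had 251 and 144 CPM in adult cells, against 76.3 and 64.1 CPM in pup cells. As counted, it was thus higher in pup replicate 1 than in pup replicate 2, unlike most of the set. Of its 705 counts in pup replicate 1, 113 would be expected from that library's background.

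Among the accessory subunits, Ndufa12 had 256 and 142 CPM in adult cells, against 22.0 and 75.5 CPM in pup cells, a log2 fold change of 2.03. Ndufb10, of the membrane arm, had 418 and 231 CPM in adult cells, against 48.4 and 122 CPM in pup cells, and DESeq2 called it at an adjusted p of 0.0410. Both genes had every adult value above every pup value. Ndufa11, a membrane-arm subunit known for its place at the contact with complex III, did not follow: it had 599 and 297 CPM in adult cells, against 135 and 462 CPM in pup cells. Pup replicate 2 lay between the adults, and the log2 fold change of 0.59 became -0.03 without adult replicate 1 and -0.05 without pup replicate 1.

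Complex II, succinate dehydrogenase, links the citric acid cycle to the chain and has all its subunits encoded in the nucleus. Sdha, the flavoprotein that oxidises succinate, had 615 and 718 CPM in adult cells, against 125 and 248 CPM in pup cells. Its log2 fold change was 1.84 ± 0.73 (SE), with an adjusted p of 0.00748 in DESeq2. Of the 4 genes, only Sdha was higher in adult replicate 2 than in adult replicate 1. Sdhb, the iron-sulfur subunit, had 408 and 371 CPM in adult cells, against 68.6 and 237 CPM in pup cells. The membrane anchors were Sdhc, with 288 and 200 CPM in adult cells against 40.9 and 130 CPM in pup cells, and Sdhd, with 531 and 309 CPM in adult cells against 62.3 and 171 CPM in pup cells. In all 4 genes the ages did not overlap, against a background of 21.8% of all genes, and DESeq2 called only Sdha.

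Complex III, the cytochrome bc1 complex, had log2 fold changes from 1.5 to 2.58. It had 9 of 9 genes without overlap, against a background of 21.8% of all genes. Its 4 core and redox subunits had a median of 1.87 and its 5 small subunits one of 1.95. Uqcr10, a small subunit beside cytochrome c1, had 1010 and 453 CPM in adult cells, against 72.4 and 173 CPM in pup cells. Its log2 fold change of 2.58 ± 0.85 (SE) had an adjusted p of 0.284 in edgeR and of 0.00300 in DESeq2. The lower adult value was still above the higher pup value.

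The redox subunits of complex III went the same way. Uqcrfs1, the Rieske iron-sulfur protein, had 581 and 349 CPM in adult cells, against 65.1 and 146 CPM in pup cells, with an adjusted p of 0.00839 in DESeq2. Cyc1, cytochrome c1, had 639 and 362 CPM in adult cells, against 46.4 and 173 CPM in pup cells, with 0.0348 in DESeq2. Both were above every pup value in both adults. Of the small subunits, Uqcrb had 611 and 419 CPM in adult cells, against 53.9 and 170 CPM in pup cells, and Uqcr11 had 506 and 278 CPM in adult cells, against 57.1 and 145 CPM in pup cells. DESeq2 gave these 2 genes adjusted p-values of 0.0160 and 0.0357. Uqcrq, at 457 and 266 CPM in adult cells and 68.4 and 183 CPM in pup cells, had a log2 fold change of 1.52 and was not called.

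Complex IV, cytochrome c oxidase, had 10 ubiquitous nuclear subunits, with a median log2 fold change of 1.94. All 10 were higher in both adults than in both pups, against a background of 21.8% of all genes. Cox5a, a matrix-side subunit, had 432 and 233 CPM in adult cells, against 27.3 and 88.3 CPM in pup cells. Its log2 fold change was 2.52 ± 0.78 (SE), with an adjusted p of 0.284 in edgeR and of 0.00903 in DESeq2. Cox7b had 549 and 335 CPM in adult cells, against 55.0 and 163 CPM in pup cells, with 0.0339 in DESeq2. Cox8a, a small membrane subunit, had 1474 and 824 CPM in adult cells, against 112 and 418 CPM in pup cells, with 0.0390 in DESeq2.

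Not every ubiquitous subunit passed. Cox7c had 313 and 172 CPM in adult cells, against 33.3 and 93.5 CPM in pup cells, a log2 fold change of 1.94 that neither tool called. Cox6a1 had 1319 and 761 CPM in adult cells, against 166 and 540 CPM in pup cells, and Cox4i1 had 1520 and 872 CPM in adult cells, against 283 and 722 CPM in pup cells. In both genes the lower adult value was still above both pup values. Cox7a2l, which is not a subunit of the monomer but is known for joining complexes III and IV into supercomplexes, had 114 and 84.2 CPM in adult cells, against 38.0 and 83.4 CPM in pup cells.

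Complex V, ATP synthase, had the highest summed CPM of the 5 complexes in every library, though per kb of transcript complex I held more of the level in both pups. Atp5b, the catalytic beta subunit of the F1 head, averaged 1591 CPM per kb of transcript over the 4 libraries, the highest level per length among the 86 genes. It had 5919 and 3765 CPM in adult cells, against 666 and 1847 CPM in pup cells, a log2 fold change of 1.95 ± 1.47 (SE). DESeq2 called it at an adjusted p of 0.0248. The 5 genes of the F1 head had a median of 1.83 and the 4 of the peripheral stalk one of 1.71.

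The 3 genes of the c-ring had a median of 1.53 and the 4 small membrane subunits one of 1.58. Atp5s, counted in complex V by its symbol, was placed in none of these parts. Atp5e, the epsilon subunit of the F1 rotor, had 863 and 361 CPM in adult cells, against 46.5 and 212 CPM in pup cells, a log2 fold change of 2.24. Atp5mpl, a small membrane subunit, had 525 and 258 CPM in adult cells, against 40.0 and 132 CPM in pup cells. Atp5j, coupling factor 6 of the stalk, had 976 and 680 CPM in adult cells, against 99.7 and 312 CPM in pup cells. In all 3 the ages did not overlap, and DESeq2 called Atp5mpl at 0.0352 and Atp5j at 0.0291 but not Atp5e.

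Atp5l, the g subunit of the membrane part, had a negative log2 fold change on few reads. It had 116 and 21 counts in adult cells, against 440 and 64 counts in pup cells, and 90.0 of the 440 counts in pup replicate 1 would be expected from that library's background. Its log2 fold change was -2.29 with all libraries and 0.63 without pup replicate 1, so its sign rests on that library. Annotated pseudogenes carry the name of this gene, reads that align to several places are not in the gene counts, and its level is therefore uncertain.

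Among the isoform groups, the largest difference in share was in the pair of subunit 7a of complex IV. Cox7a1 encodes the form of subunit 7a known from heart, skeletal muscle and brown fat, and Cox7a2 the form found in most tissues. Cox7a1 had 192 and 65.9 CPM in adult cells, against 0.866 and 2.89 CPM in pup cells. These rest on 2511 and 916 counts in adult cells and on 8 and 55 counts in pup cells, and 7.48 of the 8 counts in pup replicate 1 would be expected from its background. The log2 fold change was 6.06 ± 0.94 (SE), with an adjusted p of 0.164 in edgeR, the smallest of the 83 genes, and of 1.17e-09 in DESeq2.

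Leaving out a library changed the call of Cox7a1 in edgeR but not its direction. It was the only gene of the 83 that edgeR called without adult replicate 1, at an adjusted p of 0.0005997 and against a background of 1.4%, and without adult replicate 2, at 2.26e-08 and against 1.51%. Without a low-count filter it was again the only call, at 6.79e-08 and against 0.624%. Without pup replicate 1 or pup replicate 2 edgeR called 0 of the 83 genes, as it called 0% of all genes. The log2 fold change ran from 5.07 to 7.20 over the 4 fits. Cox7a2 had 957 and 500 CPM in adult cells, against 70.9 and 268 CPM in pup cells, and DESeq2 called it at 0.0481. Both forms were thus above the pup values in both adults.

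Of the summed level of Cox7a1 and Cox7a2 per kb of transcript, Cox7a1 made up 25.2% and 18.1% in adult cells, against 2.01% and 1.78% in pup cells. The means were 21.7% ± 5.02 in adults and 1.89% ± 0.164 in pups (SD, n = 2 each), and the exact two-sided permutation test gave p = 0.333, the smallest possible. The share did not depend on pup replicate 1 for its direction, since the adult minus pup difference ran from 16.2 to 23.3 percentage points with each library left out. Skeletal muscle markers, 8 genes, summed to 6.44 and 11.6 CPM in adult cells and to 396 and 4.52 CPM in pup cells. In pup replicate 1, 329 CPM came from Ttn, a very long gene. Of its 3041 counts there, 1633 would be expected from that library's background. Of the 5 brown fat markers, Ucp1 was at 0 and 0.07 CPM in adult cells and at 2.60 and 0 CPM in pup cells, and Cidea was at 41.2 and 25.4 CPM in adult cells and at 3.25 and 1.21 CPM in pup cells. The other 3 did not go with Cidea: Dio2 was at 0.23 and 15 CPM in adult cells and at 17.5 and 11.9 CPM in pup cells, Elovl3 was at 0.92 and 0 CPM in adult cells and at 0.87 and 1.79 CPM in pup cells, and Plin5 had counts in pup replicate 1 alone.

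The promoters of the Cox7a and Cox6b pairs are shown. Cox7a1 had the largest log2 fold change of the set, and that of Cox6b2 was below 0 with all libraries. Each window runs from 250 bases before to 50 after the RefSeq start, on GRCm38.p6, in the direction of the gene. The windows are chr7:30183921-30184220 on the + strand for Cox7a1, chr9:79759804-79760103 on the - strand for Cox7a2, chr7:30626065-30626364 on the - strand for Cox6b1 and chr7:4753045-4753344 on the - strand for Cox6b2. Capitals mark matches on either strand to any of 7 motifs named in the next paragraph.
Cox7a1: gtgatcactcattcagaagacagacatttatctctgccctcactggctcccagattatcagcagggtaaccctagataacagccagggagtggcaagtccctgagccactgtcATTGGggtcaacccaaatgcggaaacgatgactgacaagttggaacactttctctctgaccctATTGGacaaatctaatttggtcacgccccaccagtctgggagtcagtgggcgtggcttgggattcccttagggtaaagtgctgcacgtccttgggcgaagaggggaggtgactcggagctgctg
Cox7a2: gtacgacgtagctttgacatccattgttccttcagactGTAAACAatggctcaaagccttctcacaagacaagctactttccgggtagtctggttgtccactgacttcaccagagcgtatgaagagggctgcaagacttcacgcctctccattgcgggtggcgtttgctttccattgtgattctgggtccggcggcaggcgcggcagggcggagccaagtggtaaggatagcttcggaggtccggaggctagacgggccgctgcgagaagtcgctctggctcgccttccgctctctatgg
Cox6b1: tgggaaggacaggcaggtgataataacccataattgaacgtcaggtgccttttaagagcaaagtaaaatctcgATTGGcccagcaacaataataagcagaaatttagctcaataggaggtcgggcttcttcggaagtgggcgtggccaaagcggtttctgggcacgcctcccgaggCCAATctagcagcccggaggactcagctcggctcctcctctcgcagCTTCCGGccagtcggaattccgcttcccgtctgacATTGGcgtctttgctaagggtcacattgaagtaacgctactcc
Cox6b2: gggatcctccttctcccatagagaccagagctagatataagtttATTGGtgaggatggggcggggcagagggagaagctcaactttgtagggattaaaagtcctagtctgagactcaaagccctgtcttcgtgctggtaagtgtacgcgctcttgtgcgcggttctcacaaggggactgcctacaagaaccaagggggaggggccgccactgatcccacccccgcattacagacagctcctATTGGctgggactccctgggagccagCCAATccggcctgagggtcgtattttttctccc

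The matches were 2 CCAAT boxes in Cox7a1, 1 FOX motif in Cox7a2, 1 GABPA motif and 3 CCAAT boxes in Cox6b1, and 3 CCAAT boxes in Cox6b2. Windows were found for 67 of the 86 genes, 72 windows in all. The NRF1 motif (GCGC, 2 bases of any kind, GCGC) was in 27.8% of them, against 6.23% of all 32851 RefSeq windows of this length. GABPA (CCGGAAG) was in 22.2% of them, against 8.86%. YY1 (AAGATGGC) was in 12.5%, against 2.75%, and the motif of the estrogen-related receptors, ERR (AAGGTCA), in 11.1%, against 4.72%. NRF1, GABPA and YY1 are known regulators of many nuclear genes for mitochondrial proteins. FOX (TGTTTNC) was in 19.4%, against 20.5%, the CCAAT box (CCAAT) in 41.7%, against 37.4%, and MEF2 (CTA, 4 bases of any kind, TAG) in 1.39%, against 3.69%. Both strands were searched, and a match describes only the letters.

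**Figure D3:**
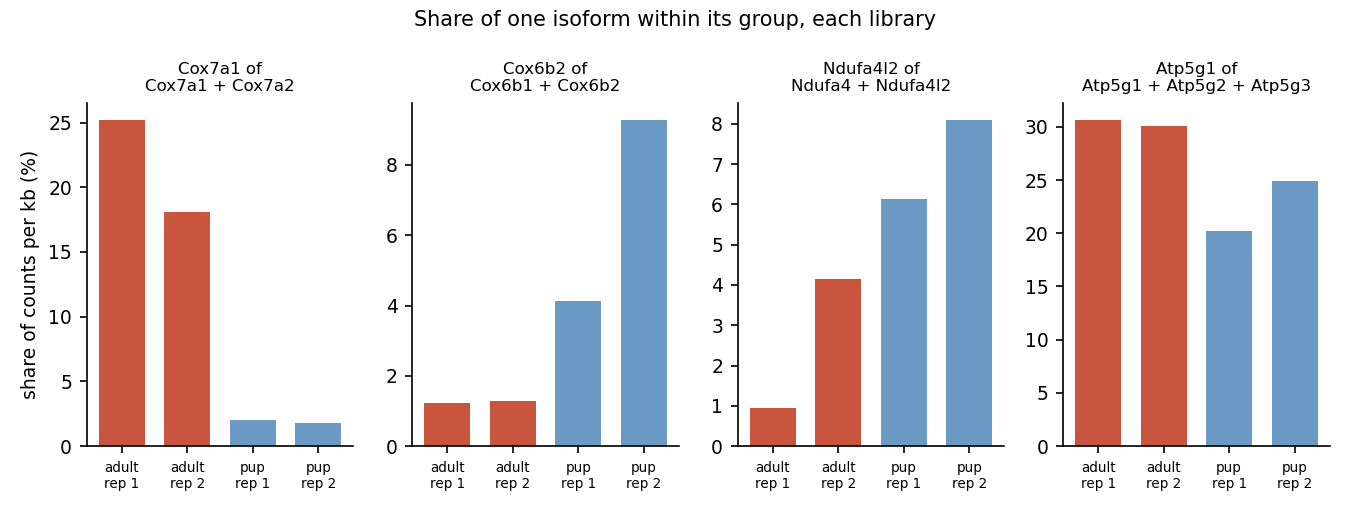
Share of each isoform group's level per kb of transcript taken by the isoform named, in percent, in the 4 libraries, with the adults left of the pups. Cox7a1 is at 25.2% and 18.1% in adult cells, against 2.01% and 1.78% in pup cells, while Cox6b2 and Ndufa4l2 are higher in pup cells.

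Other isoforms took a smaller share in adult cells. Cox6b2, the form of subunit 6b known from testis, made up 1.23% and 1.29% of the level of its pair in adult cells, against 4.13% and 9.29% in pup cells. It had 9.04 and 5.98 CPM in adult cells, against 2.81 and 24.7 CPM in pup cells, and its log2 fold change of -0.87 became 1.41 without pup replicate 2. Its ubiquitous partner Cox6b1 had 968 and 607 CPM in adult cells, against 86.9 and 321 CPM in pup cells. The share of Cox6b2 thus differed without overlap, while its own level overlapped. Of its 26 counts in pup replicate 1, 15.5 would be expected from the background. With that background subtracted the adult minus pup difference in share was -4.25 percentage points, against -5.45 as counted. The subtraction leaves the 9.29% of pup replicate 2 unchanged. The mean difference therefore does not show that the share in pup replicate 1 stayed above the adults.

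Ndufa4l2, a paralog of Ndufa4 known to be induced by hypoxia and found in pericytes, made up 0.953% and 4.16% of the pair's level in adult cells, against 6.14% and 8.10% in pup cells. It had 15.3 and 35.3 CPM in adult cells, against 7.90 and 42 CPM in pup cells, a log2 fold change of 0.02 that turned negative under other scalings. The markers of pericytes and vascular smooth muscle, 9 genes, summed to 4133 and 2033 CPM in adult cells and to 3229 and 9809 CPM in pup cells. Most of that sum was Acta2, at 2907 and 1197 CPM in adult cells and 2406 and 8235 CPM in pup cells. Next came Myh11, at 765 and 407 CPM in adult cells and 620 and 1207 CPM in pup cells. Both are contractile genes that are not particular to these cells, so the sum does not measure pericyte content. Over the 9 genes 5 were positive, with a median log2 fold change of 0.14. Ndufa4 itself had 1035 and 532 CPM in adult cells, against 78.9 and 311 CPM in pup cells. The shares of Cox6b2 and of Ndufa4l2 each had an exact two-sided permutation p of 0.333.

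The 3 genes for subunit c, which forms the proton-driven ring of ATP synthase, encode the same mature protein. Atp5g1 made up 30.7% and 30.0% of their level in adult cells, against 20.2% and 24.9% in pup cells. Atp5g3, the most abundant, made up 64.9% and 64.1% in adult cells, against 72.4% and 69.6% in pup cells. These 2 shares did not overlap between the ages (exact permutation p = 0.333 for each). They are parts of the same total, in which Atp5g2 is small, so their opposite directions are tied and are not separate observations. Atp5g2 made up 4.4% and 5.84% in adult cells and 7.39% and 5.44% in pup cells, which overlap. In CPM all 3 genes were higher in both adults, with 417 and 225 CPM for Atp5g1 in adult cells against 31.2 and 129 CPM in pup cells, 44.2 and 32.4 CPM for Atp5g2 against 8.44 and 20.8 CPM, and 1056 and 576 CPM for Atp5g3 against 134 and 430 CPM.

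The remaining restricted isoforms were at or near 0. Cox4i2, an isoform known from lung and from oxygen-sensing cells, was at 1.99 and 4.39 CPM in adult cells and at 2.71 and 1.21 CPM in pup cells, at most 0.972% of its pair. Cox8b, known from heart and muscle, had 25 and 45 counts in adult cells and 12 and 0 in pup cells. Cox6a2 was at 0 and 0.504 CPM in adult cells and at 0 CPM in both pups. Cox7b2 and Cox8c, known from testis, had counts in pup replicate 1 alone, where they made up 6.78% and 4.12% of their groups. These shares rest on 20 and 37 counts, of which 7.57 and 6.40 would be expected from that library's background.

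Set against the median gene of the set in the same library, members differed in how far they went along. On log2(CPM + 0.5) minus that median, 23 of the 83 genes were higher in both adults than in both pups and 33 were lower. Over all genes the background was 2.13% and 67.9%. That background follows from the rise of the set itself, so it is no reference for differences within the set. In complex I, 3 of 38 were higher and 23 were lower, with a median difference of -0.23. In complex III, 5 of 9 were higher and 3 lower, with a median difference of 0.24. In complex V, 7 of 17 were higher and 3 lower, and in complex IV 7 of 15 were higher and 4 lower. These counts have no test.

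**Figure D4:**
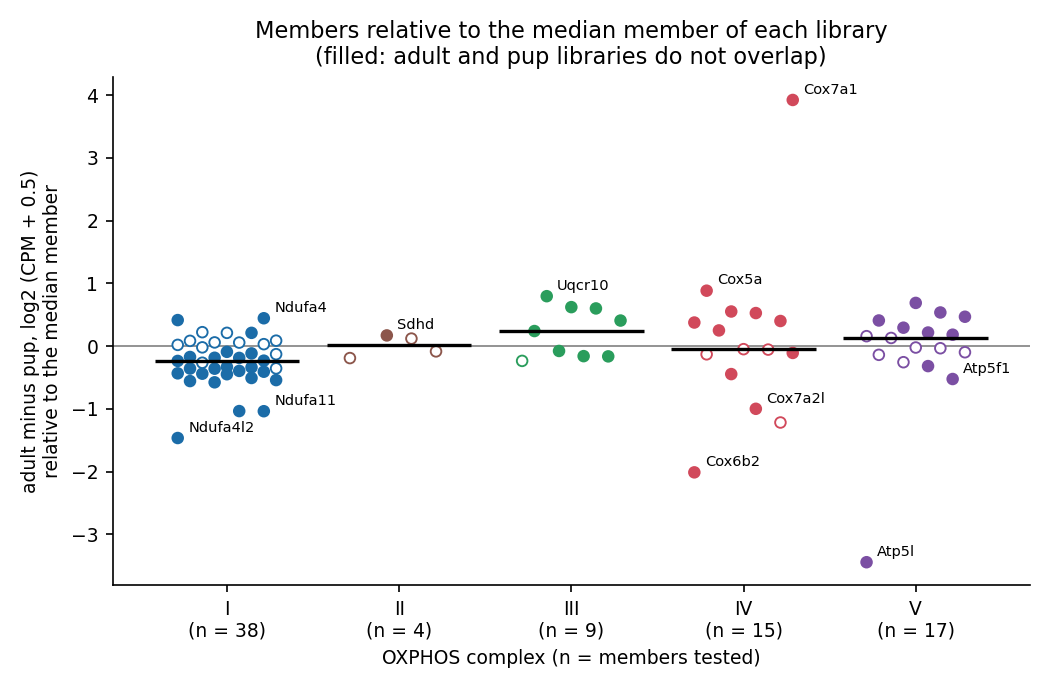
Difference of adult minus pup means of log2(CPM + 0.5), after subtracting the median of the 83 tested genes in each library, 1 point per gene, by complex, filled where adult and pup libraries do not overlap, with a bar at the median. The median is -0.23 in complex I and 0.24 in complex III, with Cox7a1 at 3.92 and Atp5l at -3.44.

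Among genes whose ages did not overlap on this scale, those farthest above the set were Cox7a1, at a difference of 3.92, Cox5a, at 0.88, and Uqcr10, at 0.80. The farthest below were Atp5l, at -3.44, which rests on pup replicate 1, Cox6b2, at -2.01, Ndufa4l2, at -1.46, Ndufa11, at -1.04, and Ndufb2, at -1.03. Ndufb2 is a small membrane-arm subunit of complex I. On this scale it was at -2.12 and -2.45 in adult cells, against -0.71 and -1.80 in pup replicates 1 and 2. Of its 303 counts in pup replicate 1, 78.7 would be expected from that library's background. Across the 83 genes, Spearman's rho of the log2 fold change with the mean CPM per kb was 0.45, and with transcript length -0.12, where all genes gave -0.13. All genes in these correlations share the same 4 libraries, and the level holds the adult values that the fold change holds, so they are a description only.

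Core subunits encoded in mitochondrial DNA were higher in adult cells too. All 8 tested of the 13 listed did not overlap between the ages, with a median log2 fold change of 2.62, and DESeq2 called 7, against backgrounds of 21.8% without overlap and 3.74% called. The other 5, mt-Co2, mt-Co3, mt-Atp6, mt-Atp8 and mt-Nd4l, were at or near 0 in the files. Reads that are ambiguous or align to several places are not in the gene counts. Whether this lowered these 5 was not tested, so their level is uncertain. The 13 genes summed to 46949 and 57736 CPM in adult cells, against 5024 and 12169 CPM in pup cells. The 86 nuclear genes summed to 46357 and 28350 CPM in adult cells, below the 13, and to 6010 and 17173 CPM in pup cells, above them. As the level of 5 of the 13 is uncertain, these sums do not show which group was the higher. Relative to the counts of all genes on mitochondrial DNA, a wider group than the 13, nuclear counts were 0.649 and 0.325 in adult cells. In pup cells they were 0.715 and 0.818. Unlike the nuclear genes, the mitochondria-encoded sum was higher in adult replicate 2 than in adult replicate 1.

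Proteins that build or serve the chain had lower medians, a difference that was not tested. The backgrounds over all genes for the counts that follow were 42.9% positive, 21.8% without overlap in the adult direction, 27.1% without overlap in the other and 3.74% called higher by DESeq2. Of 43 tested assembly factors, 38 were positive, 28 did not overlap in the adult direction and 1 did so in the other, with a median log2 fold change of 0.99. DESeq2 called 2 of the 43, a share near its background: Ndufaf4, a complex I assembly factor, at a log2 fold change of 2.57 and Coa5, a complex IV assembly factor, at 1.63. Of 14 tested genes for cytochrome c and coenzyme Q synthesis, 9 were positive and 6 did not overlap in the adult direction, against 2 in the other, with a median of 0.24. DESeq2 called 3: Cycs, somatic cytochrome c, at 2.56, and Coq7 and Coq9, which act together in a late step of coenzyme Q synthesis, at 2.73 and 2.67. Of 20 other mitochondrial proteins, among them those of import, transport and membrane shape, 18 were positive, with a median of 0.97. In the adult direction 15 did not overlap, and 1, the mitochondrial DNA polymerase gene Polg, did not overlap in the other. DESeq2 called 2 of the 20, Chchd3, of the cristae-organising complex, at 2.36 and Slc25a3, the phosphate carrier, at 1.49.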

How the data were processed

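The deposited values are raw read counts per Ensembl gene, 1 file per library, made by the authors with cutadapt 1.18, STAR 2.5.2a and HTSeq 0.11.0 on GRCm38, per the submitters' processing notes, which also name R 3.5.1 and DESeq2 1.20.0. How HTSeq was set, strand included, was not given in the sources used here. Per the labels' protocols, 1 ng of total RNA went into SMART-Seq HT, a PCR-based full-length kit without strand marks. HTSeq's closing tallies (reads in no feature, ambiguous or not uniquely aligned) took 32.9% and 32.3% of the reads of adult and 84.4% and 31.5% of pup libraries, and were left out. The 8 value columns of 2 series-wide tables were not used, as their names match no single sample.

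Symbols came from GENCODE vM21 (53360 of 53465 IDs matched). The symbol rule matched 100 genes, 87 of them protein coding and 86 with a row in the files. For 11 of these, over 10% of exon length overlaps another gene, most for Atp5o (47.9%), Ndufb6 (39.0%) and Ndufa13 (30.0%), and such reads cannot be assigned by strand. Reads of near-identical copies may be split or dropped.

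The main test was edgeR 4.0.16 (R 4.3.3), quasi-likelihood F, TMM, age as the only term and filterByExpr at a minimum count of 10 and a minimum total of 15, over 16320 genes, with Benjamini-Hochberg adjusted p under 0.05. The common biological coefficient of variation was 0.895. The SE is the log2 fold change divided by the root of F. Alternatives were DESeq2 1.42.0, limma-voom 3.58.1, other scalings and filters, an adjusted p of 0.01, the replicate number as a block, subtraction of the background of pup replicate 1 (from olfactory receptor counts per kb of exon, taken 0.5 times for genes on X and Y) and each library left out in turn. A lone library left in an age is assumed to vary like the other age. Scripts were tested on simulated data. Levels between genes are CPM per kb of the principal transcript. Isoform shares were tested by exact permutation over libraries.

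Members, lists and tests were chosen with earlier results of these data known. Values per library are given for the 4 genes of smallest p and the 2 of highest level per length in each complex and for all isoforms. Cox7a2l, Atp5l, Atp5s, Cyc1, Ndufb2, Polg and the list members called by DESeq2 were named after their values were seen. PCR reads without molecular identifiers are not independent molecules.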

Additional observations from a re-analysis of the deposited data

Results flagged for a closer look

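One gene outside the protein-coding set carried signal. Ndufb1-ps, annotated as a long noncoding RNA at a bidirectional promoter and left out by the rule for protein-coding genes, had 332 and 191 CPM in adult cells, against 42.3 and 122 CPM in pup cells. Its lowest adult value of 191 CPM was above both pup values. The log2 fold change was 1.67 ± 0.71 (SE), with an adjusted p of 0.363 in edgeR and of 0.118 in DESeq2.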

How the results depend on the processing

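With 2 libraries per age and a large spread, calls depended on the test more than directions did. The count of called genes was 0 in edgeR, 1 with no filter, 17 in DESeq2, and 0 to 1 in edgeR with each library left out in turn. DESeq2 without adult replicate 1 called 1 and without pup replicate 1 called 5. These last 2 fits, the joined exon length and the mean in place of the median were chosen after seeing the data. Between 80 and 82 genes were positive under every alternative run. With each library left out, the median log2 fold change ran from 1.04 to 2.5 for the 83 genes, 0.88 to 2.37 for complex I, 1.10 to 2.54 for complex II, 1.43 to 2.78 for complex III, 1.37 to 2.65 for complex IV and 1.11 to 2.86 for complex V, in each case highest without pup replicate 2. Scaling shifted the median of all 16320 genes by -0.07 (DESeq2 size factors), -0.18 (upper quartile) and -0.38 (library totals). Ndufa4l2 turned to -0.021, -0.078 and -0.14 under these, to -0.020 in DESeq2 and to -0.016 with the background subtracted, to -0.76 in DESeq2 without pup replicate 1, and to between -0.74 and 1.68 with a library left out. Ndufa11 ran from -0.047 to 1.74 with a library left out, and was -0.0071 in DESeq2 without adult replicate 1 and -0.057 without pup replicate 1. Cox6b2 ran from -1.72 to 1.41, the share of Cox4i2 from -0.648 to 0.153 percentage points and that of Cox8b from -1.34 to 0.398, adult minus pup. The cause of these changes was not tested.

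Replicate numbers are shared by the ages, but same-numbered libraries did not deviate together (correlation of deviations -0.098). With the replicate number as a block the median was 1.72, 81 genes were positive and 0 were called.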
